A study of Homo sapiens with 118 samples.

Results

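Collagen chains are the subunits of the collagens, the main structural proteins of the extracellular matrix. They were taken here as every probe row of the count table whose gene symbol reads COL, a number, A and a number. The rule found 46 rows of 22068, which stood for 44 of 19470 symbols, since COL3A1 and COL9A1 had 2 probes each. A row is called a feature below and is named by its symbol. All 44 symbols matched the RefSeq annotation of GRCh38.p14.

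Every collagen is a triple helix of chains. Fibrillar chains (types I, II, III, V, XI, XXIV and XXVII) form the fibres of scar and connective tissue, type IV chains form the sheets of basement membranes, and the remaining chains decorate fibres, anchor them or span membranes. In liver, fibrillar collagens are laid down mostly by stellate cells and fibroblasts, and their accumulation is the core of fibrosis. Type XVIII is a basement membrane collagen that hepatocytes themselves make, and its C-terminal fragment is known as endostatin.

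The cells were HepaRG, an established human cell line from a liver tumour, bought as frozen cells that had already been differentiated and cultured for 7 days in collagen-coated wells. They were then dosed each day over 72 hours with 1 of 8 histone deacetylase inhibitors, drugs that keep histones acetylated. Scriptaid, tacedinaline and vorinostat were on plate E (45 libraries), and apicidin, mocetinostat, panobinostat, trichostatin A and valproic acid on plate H (73 libraries). Each inhibitor was given at 5 concentrations, C1 (lowest) to C5 (highest), and expression was read with TempO-Seq, which counts ligated pairs of detector probes on each transcript. The 118 libraries formed 40 groups, 38 of 3 libraries and 2 of 2 (panobinostat C3 and trichostatin A C4, without replicate 3), and replicates 1 to 3 came from 3 batches of HepaRG.

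Concentrations differed between inhibitors. C1 and C5 were 0.0417 and 0.86 µM for apicidin, 0.177 and 3.9 µM for mocetinostat, 0.00147 and 0.084 µM for panobinostat, and 0.0188 and 1.52 µM for trichostatin A. They were 4.94 and 94.5 µM for scriptaid, 1.14 and 44 µM for tacedinaline, and 0.405 and 23.5 µM for vorinostat. For valproic acid the dose labels read 100.5 and 3038 µM, but the treatment protocol gives far smaller numbers in the same unit, so that unit is open. Solvent-control libraries were not used here, so C1 of the same inhibitor was the reference, and any effect that the lowest dose already had is hidden. Inhibitor and plate cannot be told apart between the plates, while C1 to C5 of 1 inhibitor shared a plate.

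Total counts per library ranged from 1061359 to 5250260, with a median of 3702007. Hepatocyte markers (11 features, ALB and HP among them) were well counted at C1, with a summed level of 50768 to 103141 CPM (counts relative to the scaled library total) in the 7 inhibitors other than trichostatin A. At C5 the sum was 3731 to 33575 CPM, and 74 of 77 tested hepatocyte marker results fell. In bulk lysates fewer cells of a type and less RNA per cell cannot be told apart, here and in every result below. The sum over mesenchymal and stellate cell markers (13 features) was 163 to 265 CPM at C1 and 89.3 to 212 CPM at C5. LUM, DCN, ACTA2 and PDGFRB were counted, DES reached at most 1 count and THY1 at most 2, and 2 of 49 tested results rose and 19 fell. The biliary sum (12 features) was 85.5 to 201 CPM at C1 and 83.8 to 233 CPM at C5, with 11 of 46 results higher and 4 lower. These marker counts are to be read against all features, of which 11.1% (valproic acid) to 47.5% (vorinostat) rose or fell at C5 in the 7 inhibitors. The biliary count and the mesenchymal and stellate count are both within that range. The endothelial sum (10 features) was 6.51 to 17.8 CPM at C1 and 0.42 to 12.6 CPM at C5. The leukocyte sum (6 features) was 24.7 to 122 CPM at C1 and 15.3 to 52.3 CPM at C5, with PTPRC at 0 throughout. The trichostatin A C1 library of replicate 3 stood apart from its group, with a hepatocyte sum of 17975 CPM against 72054 and 75327 CPM in the other two. Both values are given where leaving it out moved a log2 change or a count of calls named below by over 1.5 times. They are also given where leaving it out turned a direction or changed a call. Adjusted p-values moved without it as well, and most are given with it included only.

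Collagen features took a small part of the counts. Their summed share was 0.0381 to 0.121% of all counts in the 118 libraries, with a median of 0.0777% over the C1 libraries and 0.0796% over the C5 libraries. The lowest share was that of scriptaid C4 replicate 3, against 0.0688 and 0.0788% in the rest of its group. That library had 10223 features with at least 5 counts, and the rest of its group had 12367 and 12873. It was kept in the scriptaid fits at C4 and by trend, and leaving it out alone was not tried. Within the collagen share single chains moved far, and they moved in opposite directions.

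Of the 46 features, 23 had enough counts to be tested in at least 1 inhibitor and 19 were tested in all 8. The other 23 never exceeded 21 counts in a library, and 7 features had at most 5 counts everywhere. COL9A3, a cartilage chain, had 0 counts in all 118 libraries, which allows up to 3 counts per library. A feature could pass the filter on the counts of a single group, so counts over tested features are a description and no more. In the comparisons below a feature rose or fell (was called) when its edgeR quasi-likelihood p-value, adjusted over all features tested in that inhibitor, lay under 0.05 and it changed by a factor of at least 1.5.

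Over the 8 inhibitors there were 174 collagen results per concentration. At C2, 0 were called by edgeR, against 0.0865% of all features, and DESeq2 called 1. An unadjusted p under 0.05 was found at C2 in 16 collagen results. Over all features it was found in 164 of 12790 (scriptaid) to 2475 of 13065 (mocetinostat) in the single inhibitors. At C3, 9 rose and 9 fell, which is 10.3% of the collagen results against 5.98% of all features. At C4, 21 rose and 22 fell, 24.7% against 16.0%. At C5, 28 rose and 33 fell, 35.1% against 25.0%. The slope over log2 concentration, called the trend and given as the log2 change that the line predicts between C1 and C5, was called in 62 results, 30 higher and 32 lower, against 25.4% of all features. The median log2 change of the tested collagen results at C5 was 0.03, and over all features it lay between -0.0018 and 0.084 in the single inhibitors. All 61 calls at C5 went the same way in all 3 batches, and in 59 the C1 and C5 libraries did not overlap. The calls were picked from these same libraries, so such agreement is largely built in and adds no separate support. In 11 of the 61 calls 1 of the 2 groups had a mean under 10 counts, so that the size of the change is poorly fixed there, and 5 of these were COL3A1.

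Each inhibitor other than trichostatin A moved collagen features in both directions at C5. Tacedinaline had 5 higher and 8 lower of 20 (38.8% of all its features were called), and vorinostat had 5 higher and 6 lower of 21 (47.5%). Apicidin had 5 higher and 4 lower of 21 (28.8%), and mocetinostat had 3 higher and 6 lower of 23 (30.5%). Valproic acid had 5 higher and 2 lower of 23 (11.1%). Panobinostat had 3 of each of 22 (16.2%), and scriptaid had 2 higher and 4 lower of 22 (29.8%). In trichostatin A edgeR called 0 of 22 (0.0154%) and DESeq2 called 1. An unadjusted p under 0.05 was found there in 6 of the 22 and in 1255 of all 12993 features. By trend, tacedinaline had 5 higher and 8 lower (43.3% of all features called), vorinostat 6 and 5 (47.4%), apicidin 6 and 5 (34.4%) and mocetinostat 2 and 6 (35.6%). Valproic acid had 5 higher and 2 lower (14.9%), panobinostat 4 and 2 (17.4%) and scriptaid 2 and 4 (13.0%). Trichostatin A had 0 by edgeR (0.0616%) and 2 by DESeq2. Its trend had an unadjusted p under 0.05 in 6 of the 22 and in 1165 of all 12993 features. At C5 and by trend, no collagen feature rose in 1 inhibitor and fell in another.

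**Figure D1:**
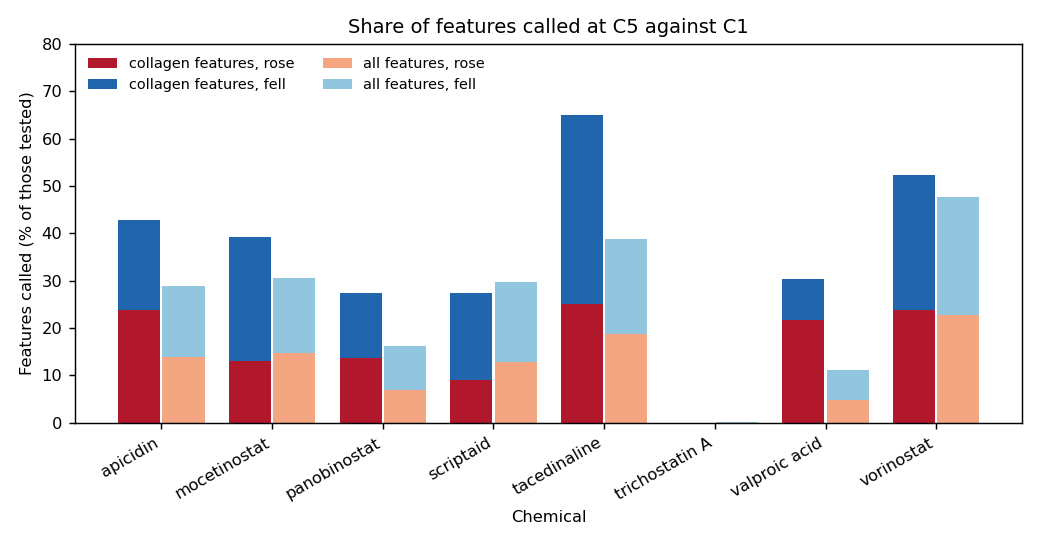
Share of tested features called at C5 against C1 (y axis, % of those tested) in each inhibitor (x axis), for collagen features (dark bars) and all features (light bars), with the part that rose in red and the part that fell in blue. The collagen share was above that of all features in 6 inhibitors, below it in scriptaid (6 of 22 against 29.8%) and 0 in trichostatin A.

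**Figure D2:**
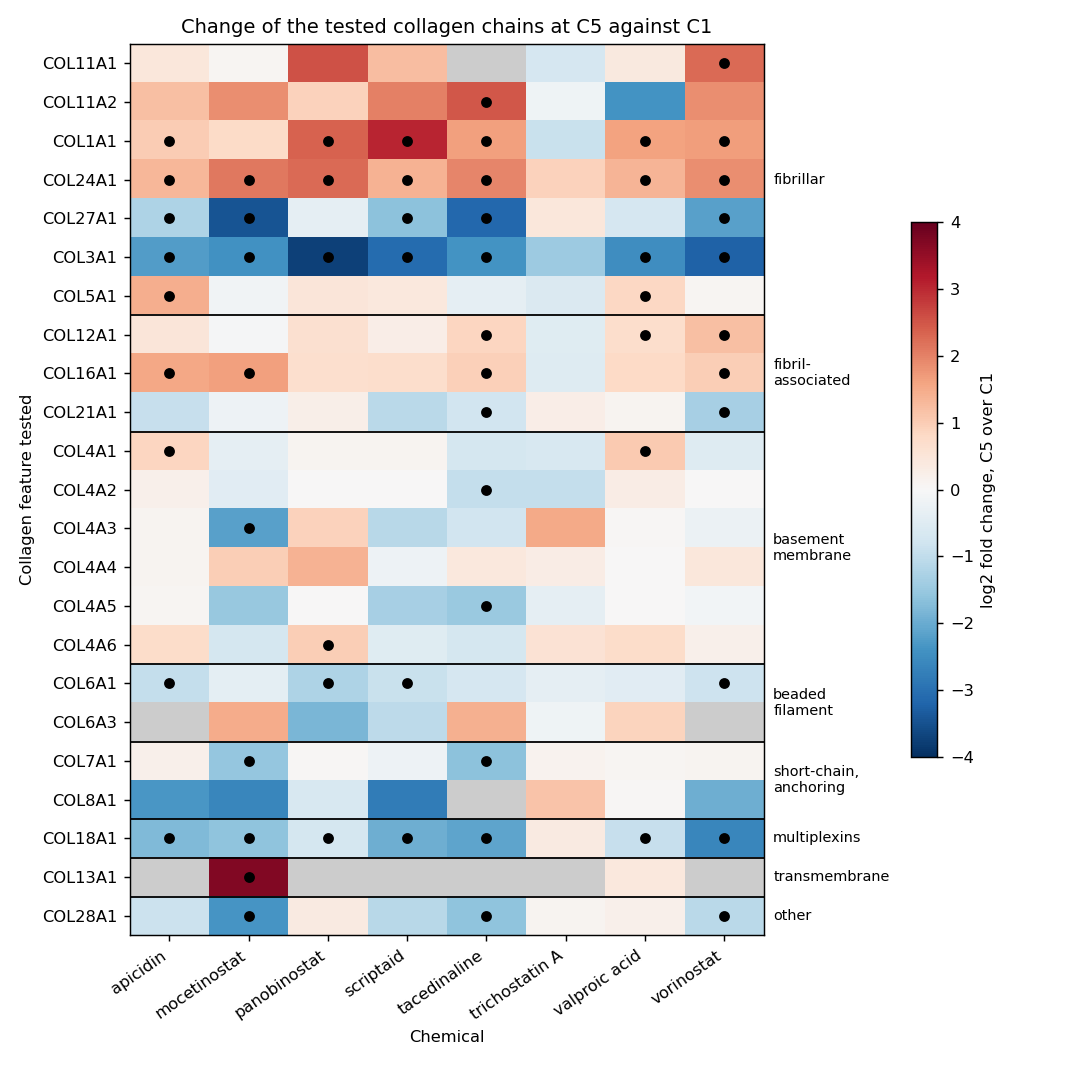
Log2 fold change at C5 against C1 (colour) of the 23 tested collagen features (rows, grouped by collagen class) in the 8 inhibitors (columns), with black dots on called results and grey where a feature was not tested. COL24A1 rose and COL3A1 and COL18A1 fell in 7 of 8 inhibitors and COL1A1 rose in 6, while basement membrane chains carry 6 dots in 48 results.

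By class, and read against 25.0% of all features called at C5, fibrillar chains had 17 higher and 12 lower of 55 results. Chains that associate with fibrils (COL12A1, COL16A1 and COL21A1 among those tested) had 7 higher and 2 lower of 24, and basement membrane chains had 3 higher and 3 lower of 48. Beaded filament chains had 0 higher and 4 lower of 14, short-chain and anchoring chains 0 higher and 2 lower of 15, and the multiplexin COL18A1 0 higher and 7 lower of 8. COL28A1, in no other class, had 0 higher and 3 lower of 8, and the transmembrane COL13A1 1 higher of 2. Classes were not tested against each other.

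COL24A1, the alpha 1 chain of the minor fibrillar type XXIV, rose in 7 inhibitors. In panobinostat the C1 libraries held 28.6, 32.3 and 30.8 CPM and the C5 libraries 129, 160 and 160 CPM. The groups lay far apart, and the log2 change was 2.27 ± 0.21 (SE, n = 3 per group, adjusted p = 9.92e-08). In vorinostat the C1 libraries held 45.8, 48.6 and 46.0 CPM and the C5 libraries 148, 133 and 196 CPM, a log2 change of 1.87 ± 0.20 (adjusted p = 1.95e-09). The change was 2.11 in mocetinostat, 1.94 in tacedinaline, 1.38 in scriptaid, 1.36 in valproic acid and 1.32 in apicidin. In scriptaid the C5 libraries were spread, at 59.2, 87.1 and 174 CPM, and the call was lost without replicate 2 (log2 change 1.45).

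In trichostatin A the C1 libraries held 27.8, 32.0 and 42.1 CPM of COL24A1 and the C5 libraries 73.1, 51.5 and 66.4 CPM. These did not overlap, but the change of 0.92 ± 0.24 was not called (adjusted p = 0.264). Without the C1 library that stood apart it was 1.10 and was called at C5 and by trend (1.08), the 1 collagen feature called then, against 0.808% of all features at C5 and 0.621% by trend. Among the 7 inhibitors in which COL24A1 rose, it was first called at C3 in 4, at C4 in 2 and at C5 in 1. In tacedinaline the mean level was 42.7 CPM at C1, 69.6 at C2, 131 at C3, 133 at C4 and 153 at C5, so most of the rise was in place at C3.

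The 250 bases before the RefSeq start of COL24A1 (GRCh38.p14, chr1:86156773-86157022, minus strand) are shown beside those of the 2 chains with the smallest p-values in the test of differences between inhibitors, COL18A1 (chr21:45404915-45405164, plus strand) and COL27A1 (chr9:114155287-114155536, plus strand). Capitals mark the CCAAT box (CCAAT, both strands), the GC box (GGGCGG, both strands) and the TATA box (TATAAA, gene strand), and overlapping matches were counted.
COL24A1: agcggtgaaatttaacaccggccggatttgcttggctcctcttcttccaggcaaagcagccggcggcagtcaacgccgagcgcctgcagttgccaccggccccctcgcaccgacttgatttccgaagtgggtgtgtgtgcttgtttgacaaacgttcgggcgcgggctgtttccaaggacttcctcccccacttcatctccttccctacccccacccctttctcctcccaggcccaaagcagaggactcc
COL18A1: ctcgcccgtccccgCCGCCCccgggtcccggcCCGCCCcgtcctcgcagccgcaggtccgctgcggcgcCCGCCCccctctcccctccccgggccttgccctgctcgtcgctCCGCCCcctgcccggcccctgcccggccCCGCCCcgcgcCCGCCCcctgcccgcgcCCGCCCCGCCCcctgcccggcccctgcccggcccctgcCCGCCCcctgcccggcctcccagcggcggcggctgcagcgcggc
COL27A1: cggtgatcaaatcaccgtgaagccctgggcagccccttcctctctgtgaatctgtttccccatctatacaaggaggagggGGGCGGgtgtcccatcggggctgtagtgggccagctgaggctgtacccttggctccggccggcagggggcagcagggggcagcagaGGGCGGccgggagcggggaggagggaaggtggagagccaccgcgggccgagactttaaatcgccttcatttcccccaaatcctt

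The COL24A1 window held none of these motifs, the COL18A1 window 9 GC boxes and the COL27A1 window 2. In the same window of 250 bases before the start, a GC box was found in 18 of 32 collagen symbols with a promoter entry (56.2%) and in 42.6% of 35116 promoters. There a CCAAT box was found in 9 of 32 (28.1%, against 32%) and a TATA box in 3 of 32 (9.38%, against 6.8%). These are matches of letters in 1 window per gene. COL18A1 is known to be read from more than 1 start, and other starts were not examined.

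COL1A1, the alpha 1 chain of type I collagen and the most abundant collagen of scar tissue, rose in 6 inhibitors from a low level. In scriptaid the C1 libraries held 4.6, 0.7 and 4.4 CPM and the C5 libraries 16.8, 16.2 and 42.9 CPM, a log2 change of 3.04 ± 0.64 (adjusted p = 0.00146). In panobinostat the C1 libraries held 2.4, 4.3 and 6.0 CPM and the C5 libraries 26.0, 26.2 and 12.1 CPM, a log2 change of 2.35 ± 0.41 (adjusted p = 0.000343). The groups did not overlap in either inhibitor. The change was 1.67 in vorinostat, 1.64 in tacedinaline, 1.62 in valproic acid and 1.01 in apicidin. In apicidin the call at C5 was lost without replicate 2 (1.03), without replicate 3 (0.84) and with no filter on low counts (1.00). In valproic acid it was lost without replicate 1 (1.61).

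In mocetinostat the C1 libraries held 15.5, 12.7 and 12.1 CPM of COL1A1 and the C5 libraries 19.8, 21.0 and 24.2 CPM, a change of 0.77 ± 0.44 that was not called (adjusted p = 0.207). The mean was 13.4 CPM at C1, 30.4 ± 20.5 (SD) at C2 and 30.9 ± 3.5 at C3 and then 19.4 at C4. In pairwise F tests of the C5 changes, mocetinostat differed from scriptaid alone (by -2.29 ± 0.64, adjusted p = 0.0114). The change in apicidin minus that in mocetinostat was 0.31 (adjusted p = 0.870). In trichostatin A the change was -0.90 (adjusted p = 0.685), with C1 libraries at 2.7, 7.4 and 15.5 CPM, the highest of them being the library that stood apart. Without that library it was -0.14.

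COL3A1, the single chain of type III collagen, which forms thin fibres together with type I, fell in the same 7 inhibitors in which COL24A1 rose. In panobinostat the C1 libraries held 23.2, 24.6 and 19.8 CPM and the C5 libraries 0.6, 0.5 and 4.1 CPM, a log2 change of -3.73 ± 0.55 (adjusted p = 5.17e-05). In valproic acid the C1 libraries held 20.8, 22.3 and 29.9 CPM and the C5 libraries 7.6, 2.8 and 2.3 CPM, a change of -2.47 ± 0.39 (adjusted p = 0.000163). The change was -3.23 in vorinostat, -3.09 in scriptaid, -2.43 in mocetinostat, -2.38 in tacedinaline and -2.24 in apicidin. The median mesenchymal and stellate marker sum was also lower at C5 than at C1 in 6 of these 7 inhibitors, and its part in the fall of COL3A1 there was not tested. In valproic acid that sum had a median of 197 CPM at C1 and 206 CPM at C5. Of its 8 tested features, 1 rose and 3 fell there at C5 (11.1% of all features called). By trend 0 rose and 3 fell (14.9%), with a median log2 change of -0.64. The part of those cells in the fall of COL3A1 was not tested there either.

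In trichostatin A COL3A1 stood at 20.5, 17.6 and 37.6 CPM at C1 and at 8.8, 11.8 and 6.3 CPM at C5, a change of -1.47 ± 0.37 that was not called (adjusted p = 0.261) and that was -1.07 without the C1 library that stood apart. The call in apicidin was lost without each of the 3 replicates in turn (changes -1.97 to -2.45), that in scriptaid without replicate 1 (-4.54) or 2 (-2.16) and that in mocetinostat without replicate 2 (-2.54). In apicidin, panobinostat, scriptaid, tacedinaline and vorinostat the C5 mean was 2 to 7 counts per library. The second COL3A1 probe was too low to test. It had 116 counts over the 24 C1 libraries (0 in 4 of them) and 8 counts over the 24 C5 libraries (0 in 20).

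COL1A1 and COL3A1 were set against each other as a ratio of counts within each library. The pair was chosen because the one rose and the other fell, so the ratio restates those calls on another scale and was not tested. In panobinostat the log2 ratio of COL1A1 over COL3A1, with 1 added to each count, was -3.17, -2.47 and -1.68 at C1 and 4.97, 5.18 and 1.49 at C5. The mean ratio rose by 6.32 there, by 6.27 in scriptaid, 4.67 in vorinostat, 4.23 in tacedinaline, 4.12 in valproic acid, 3.17 in apicidin and 3.10 in mocetinostat. In trichostatin A the rise was 0.85, and 1.10 without the C1 library that stood apart. Ratios between 2 probes give a change, not the relative abundance of the 2 chains, since probes differ in efficiency.

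**Figure D3:**
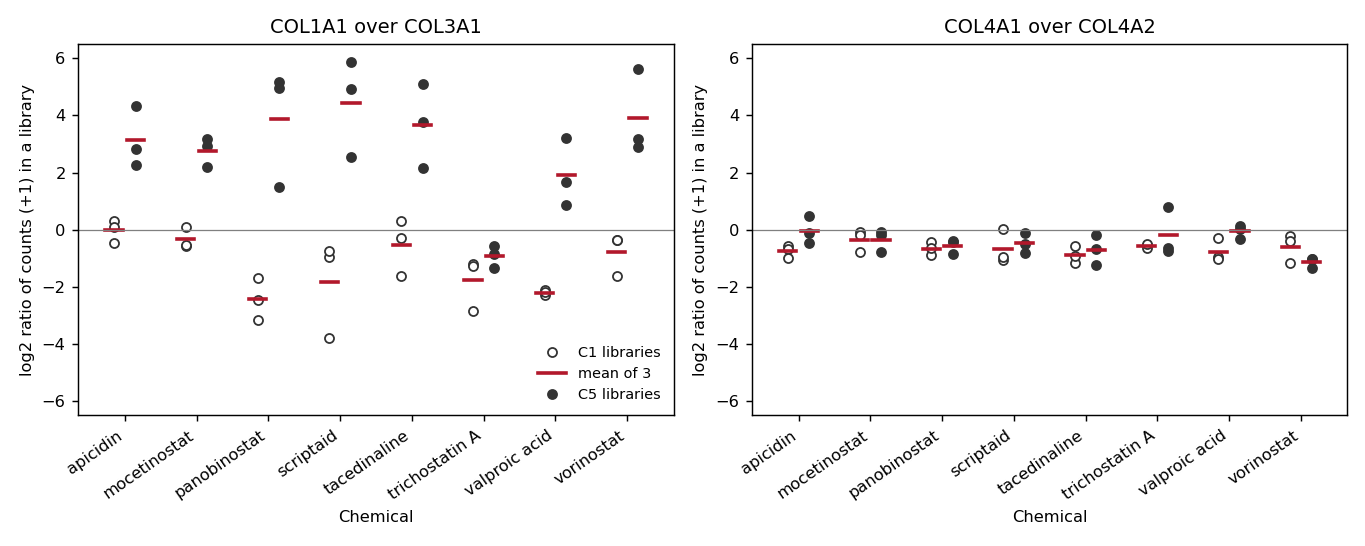
Log2 ratio of counts (each plus 1) in each library (y axis) at C1 (open circles) and C5 (filled circles) in each inhibitor (x axis), with the mean of 3 libraries as a red line, for COL1A1 over COL3A1 (left) and COL4A1 over COL4A2 (right). The left ratio, of a pair chosen for its opposite changes, rose by 3.10 to 6.32 in 7 inhibitors, and the right one overlapped between C1 and C5 in 7 of 8.

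COL1A2 and COL6A2, picked after their values were seen, were nearly absent while their partner chains were counted. COL1A2 encodes the alpha 2 chain that joins alpha 1 chains in the usual type I molecule, and it had 0 counts in 99 of 118 libraries and at most 5, while COL1A1 had 3 to 191 counts (median 37.5). COL6A2 had 0 counts in 113 libraries and at most 5, while COL6A1 had 27 to 479 (median 151). Whether these probes are inefficient or the transcripts rare was not tested.

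COL27A1, the chain of type XXVII, a fibrillar collagen of cartilage that is closely related to type XXIV, moved the other way from COL24A1. It fell in 5 inhibitors. In mocetinostat the C1 libraries held 53.0, 27.4 and 34.7 CPM and the C5 libraries 4.9, 1.8 and 3.0 CPM, a log2 change of -3.46 ± 0.56 (adjusted p = 0.000206). In vorinostat the C1 libraries held 30.2, 25.9 and 27.3 CPM and the C5 libraries 4.1, 7.1 and 5.3 CPM, a change of -2.18 ± 0.35 (adjusted p = 3.84e-06). The change was -3.13 in tacedinaline, -1.65 in scriptaid and -1.24 in apicidin, and the call in scriptaid was lost without replicate 2 (-1.59).

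It was not called in panobinostat, with C1 libraries at 30.3, 21.4 and 25.5 CPM and C5 libraries at 22.7, 25.0 and 13.7 CPM (-0.34), in valproic acid (-0.67) or in trichostatin A (0.45, and 0.08 without the C1 library that stood apart). Here inhibitors did differ. The change of COL27A1 at C5 differed between the 8 inhibitors (joint F test, adjusted p = 1.68e-10, a test that 30.3% of all 15632 features passed) and, on plate H alone, the change in mocetinostat minus that in panobinostat was -3.22 ± 0.53 (SE, log2, adjusted p = 2.41e-06) and the change in apicidin minus that in mocetinostat was 2.29 ± 0.53 (adjusted p = 0.00123). C5 concentrations are not matched between inhibitors, so these are differences between the doses used.

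COL18A1, the type XVIII chain, fell at C5 in 7 inhibitors. In vorinostat the C1 libraries held 234, 287 and 218 CPM and the C5 libraries 35.9, 46.6 and 28.9 CPM, a log2 change of -2.61 ± 0.20 (adjusted p = 5.52e-13). In tacedinaline the C1 libraries held 285, 253 and 180 CPM and the C5 libraries 55.4, 48.6 and 54.9 CPM, a change of -2.09 ± 0.18 (adjusted p = 6.12e-13). The C5 libraries of both inhibitors lay close together and far below C1. The change was -1.96 in scriptaid, -1.78 in apicidin, -1.61 in mocetinostat and -0.92 in valproic acid, where the call was lost without replicate 1 (-0.97).

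Panobinostat differed in course. Its mean COL18A1 level was 204 CPM at C1, 207 at C2, 194 at C3 and 214 at C4 and was 126 at C5, with C1 libraries at 217, 157 and 240 CPM and C5 libraries at 146, 113 and 120 CPM. The change at C5 was -0.71 ± 0.17 (adjusted p = 0.00633), lost without replicate 1 (-0.79) or 3 (-0.54), and the trend of -0.46 was not called (adjusted p = 0.103). In tacedinaline the mean had already reached 86.2 CPM at C3. The changes differed between the 8 inhibitors (joint F test, adjusted p = 5.81e-11). The change in panobinostat, on plate H, minus that in vorinostat was 2.03 ± 0.37 (adjusted p = 2.48e-05) and minus that in tacedinaline 1.48 ± 0.36 (adjusted p = 0.0026), both on plate E. Within plate H, the change in apicidin minus that in panobinostat was -1.10 ± 0.36 (adjusted p = 0.0373).

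In trichostatin A the C1 libraries held 228, 207 and 37.0 CPM of COL18A1 and the C5 libraries 188, 166 and 240 CPM. The low library was again C1 replicate 3, the change was 0.35 (adjusted p = 0.835), and without that library it was -0.13. COL18A1 fell together with the hepatocyte markers in the 7 inhibitors, whose sums are given above, and the part of those cells in its fall was not tested.

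**Figure D4:**
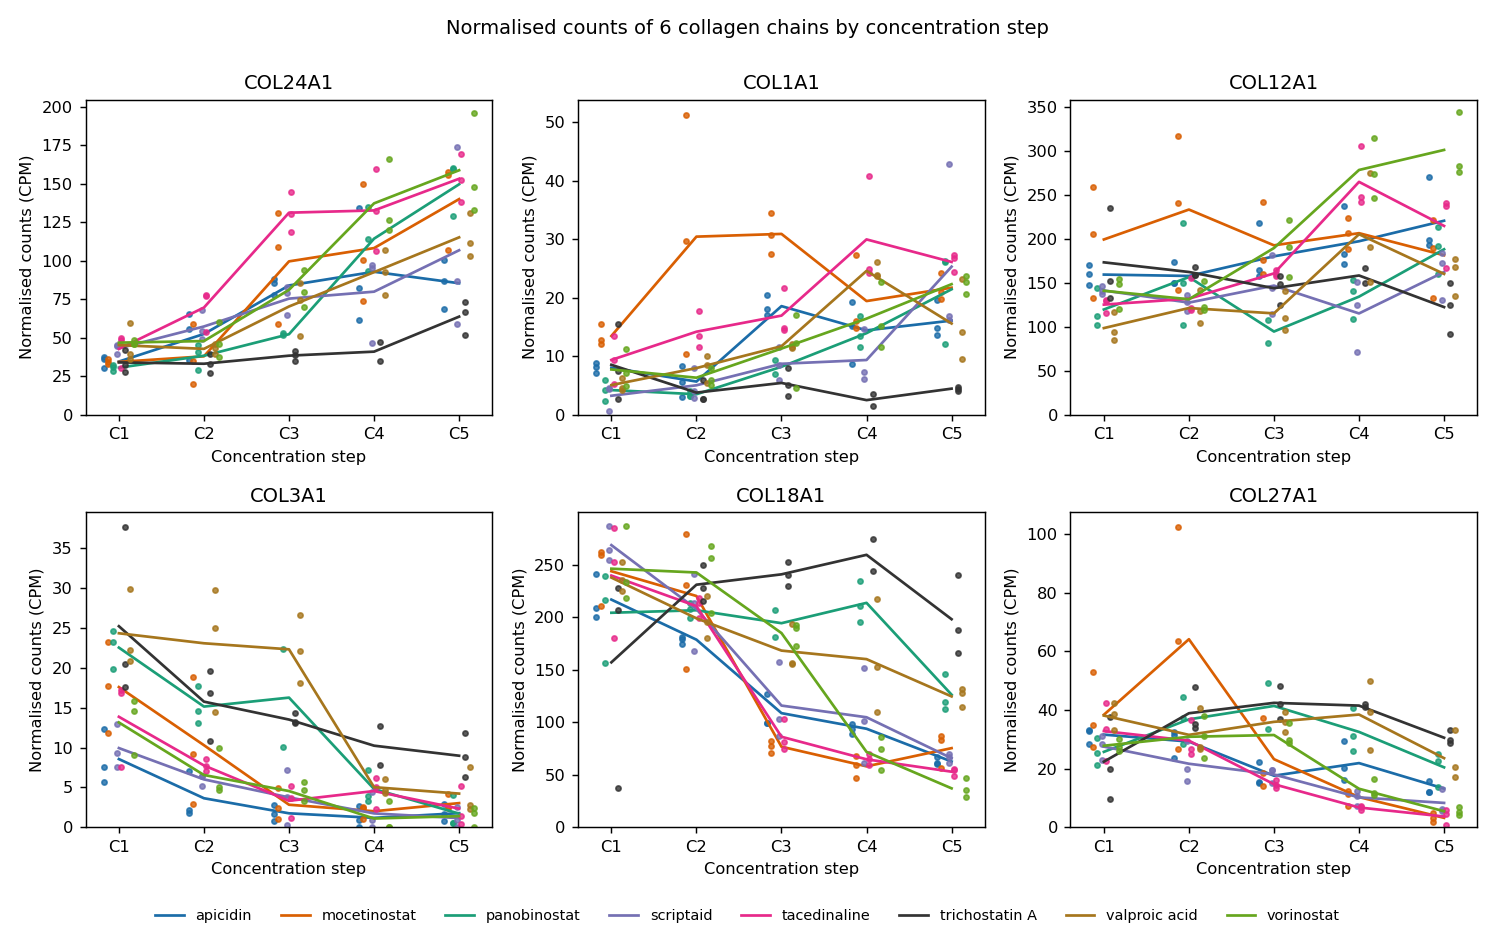
Normalised counts (CPM, y axis) of 6 collagen chains at concentration steps C1 to C5 (x axis), with a point per library and a line through the means of each inhibitor (colours). At C5 COL24A1, COL1A1 and COL12A1 had risen in 7, 6 and 3 inhibitors and COL3A1, COL18A1 and COL27A1 had fallen in 7, 7 and 5, none of them in trichostatin A (black), whose low C1 library is visible in COL18A1 at 37.0 CPM.

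COL12A1, a chain that coats fibrils of type I, rose in 3 inhibitors at C5. In vorinostat the C1 libraries held 154, 120 and 148 CPM and the C5 libraries 275, 344 and 283 CPM, a log2 change of 1.21 ± 0.16 (adjusted p = 1.43e-07). It was 0.86 in tacedinaline and 0.71 in valproic acid, where the call was lost without replicate 1 (0.79) or 2 (0.54). Changes that were not called were 0.64 in panobinostat (called, at 0.63, with the HepaRG batch as a block), 0.48 in apicidin, 0.27 in scriptaid, -0.05 in mocetinostat and -0.49 in trichostatin A (-0.22 without the C1 library that stood apart). In apicidin the adjusted p was 0.0455, but the fold change was under 1.5.

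COL16A1, another chain that associates with fibrils, rose in 4 inhibitors at C5. In mocetinostat the C1 libraries held 13.4, 11.3 and 11.0 CPM and the C5 libraries 29.9, 41.3 and 34.5 CPM, a log2 change of 1.64 ± 0.43 (adjusted p = 0.00777), lost without replicate 2 (1.47). In apicidin the change was 1.54 ± 0.38 (adjusted p = 0.00367). In tacedinaline it was 0.96, but 1 C5 library at 39.9 CPM stood above the others at 14.3 and 15.7 CPM, and without replicate 3 it was 0.27 and not called. In vorinostat it was 0.98 with overlapping groups. The call there was lost without each of the 3 replicates in turn and with no filter on low counts (0.90). The change was 0.66 in panobinostat, 0.71 in scriptaid, 0.79 in valproic acid and -0.51 in trichostatin A, not called in any of these. The mocetinostat trend of 1.28 was not called (adjusted p = 0.0559) and was 1.37 and called with the HepaRG batch as a block.

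The type XI chains, minor fibrillar chains that set fibril width, were near the limit of detection. COL11A1 in vorinostat went from 2.2, 2.0 and 0.0 CPM at C1 to 3.3, 7.1 and 8.3 CPM at C5, a change of 2.28 ± 0.89 (adjusted p = 0.031). That COL11A1 call was lost without each replicate in turn and with no filter on low counts (2.18). In panobinostat its trend of 2.67 was called and its C5 change of 2.53 was not, and the trend call was lost without each replicate in turn (2.02 to 3.09). Its change at C5 was 1.22 in scriptaid, 0.45 in apicidin, 0.40 in valproic acid, 0.08 in mocetinostat and -0.67 in trichostatin A (-0.36 without the C1 library that stood apart), none of them called, and it was not tested in tacedinaline. COL11A2 in tacedinaline went from 1.7, 1.8 and 2.2 CPM to 10.4, 12.3 and 8.5 CPM, a change of 2.49 ± 0.70 (adjusted p = 0.0036), lost without replicate 2 (2.28). Its C5 change was 2.01 in scriptaid, 1.86 in mocetinostat, 1.85 in vorinostat (with a called trend of 2.44, lost without replicate 3), 1.21 in apicidin, 0.92 in panobinostat, -0.18 in trichostatin A and -2.39 in valproic acid, none of them called.

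COL6A1, a chain of the beaded filaments that link cells to the matrix, fell in 4 inhibitors at C5 and by trend also in tacedinaline (-0.77, lost without replicate 1 at -0.56). In panobinostat the C1 libraries held 81.9, 85.9 and 94.4 CPM and the C5 libraries 41.7, 41.5 and 29.6 CPM, a log2 change of -1.23 ± 0.22 (adjusted p = 0.000463). The change was -0.95 in apicidin (lost without replicate 3), -0.90 in scriptaid and -0.82 in vorinostat (each lost without replicate 1 or 2). It was -0.67 in tacedinaline, -0.44 in valproic acid, -0.41 in mocetinostat and -0.37 in trichostatin A, not called at C5. The joint test found no difference between the inhibitors for COL6A1 (adjusted p = 0.337) or for COL3A1 (adjusted p = 0.542), which does not show that they acted alike.

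The basement membrane chains had 6 calls in 48 results at C5. COL4A1 and COL4A2 make the common type IV molecule and are transcribed in opposite directions from starts 126 bases apart on chromosome 13. COL4A4 and COL4A3 lie 418 bases apart in the same way and COL4A6 and COL4A5 379 bases. The stretch between COL4A1 and COL4A2 is shown because the data measured both of its transcripts (GRCh38.p14, chr13:110307158-110307283, plus strand, the strand of COL4A2, with the CCAAT box and the GC box in capitals).
COL4A1-COL4A2 shared stretch: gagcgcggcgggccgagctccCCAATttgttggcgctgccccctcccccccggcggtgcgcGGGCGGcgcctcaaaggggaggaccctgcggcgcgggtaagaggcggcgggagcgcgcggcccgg

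COL4A2 fell in tacedinaline alone, from 63.1, 42.9 and 48.3 CPM at C1 to 27.7, 26.0 and 20.3 CPM at C5, a log2 change of -0.96 ± 0.26 (adjusted p = 0.00215). The trend there was -0.81, and the trend call was lost without replicate 1 (-0.59). The change at C5 was between -0.94 in trichostatin A (-0.61 without the C1 library that stood apart) and 0.31 in valproic acid in the other 7 inhibitors. COL4A1 rose in apicidin (0.87) and valproic acid (1.06). In valproic acid its C1 libraries held 29.2, 31.7 and 36.7 CPM and its C5 libraries 85.6, 64.2 and 51.6 CPM. The log2 ratio of COL4A1 over COL4A2 overlapped between C1 and C5 in 7 of 8 inhibitors. In apicidin it did not, with -0.56, -0.68 and -1.01 at C1 and 0.48, -0.47 and -0.10 at C5, a rise of 0.72 (exact permutation p = 0.1, two-sided, the smallest that 3 against 3 libraries can give). In valproic acid the rise was 0.71 with overlap (exact permutation p = 0.2). Over all inhibitors this ratio moved by -0.54 to 0.72.

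Other chains were called in few inhibitors. COL5A1, the chain that starts type I fibrils, rose in apicidin (1.46) and valproic acid (0.83), the same inhibitors as COL4A1. COL7A1, the anchoring fibril of the skin, fell in mocetinostat (-1.54) and tacedinaline (-1.65) and was higher in vorinostat at C4 (0.71) but not at C5 (0.10). COL28A1 fell in mocetinostat (-2.36), tacedinaline (-1.60) and vorinostat (-1.07) at C5, COL21A1 fell in tacedinaline (-0.78) and vorinostat (-1.33), and COL4A6 rose in panobinostat (0.98). COL13A1, COL4A3 and COL4A5 were called in a single inhibitor each and are named because of those calls. COL13A1, a transmembrane collagen, rose in mocetinostat by 3.69 from a mean of 2 to a mean of 24 counts per library. COL4A3 fell in mocetinostat (-2.18) and COL4A5 in tacedinaline (-1.49).

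COL24A1 and COL27A1 were also chosen for their opposite changes, so their ratio is a description with no test. The log2 ratio of COL24A1 over COL27A1 rose by 5.51 in mocetinostat, 5.20 in tacedinaline, 3.96 in vorinostat, 2.92 in scriptaid, 2.63 in panobinostat, 2.54 in apicidin and 2.11 in valproic acid. In mocetinostat the ratios were -0.54, 0.25 and -0.03 at C1 and 4.94, 6.25 and 5.01 at C5. In trichostatin A the ratios were -0.43, 0.67 and 2.11 at C1, the last in the library that stood apart, and 1.14, 0.84 and 1.14 at C5. The rise was 0.26 with overlap, and without that library 0.92 with no overlap.

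The 28 pairs of inhibitors were compared in the change at C5, and 8.01% of all features and pairs differed. COL27A1 differed in 14 pairs, COL18A1 in 13, COL7A1 in 12 and COL1A1 in 8, of which 5, 4, 6 and 3 were pairs within 1 plate. Of these pairs 9, 7, 10 and 2 did not involve trichostatin A. Without the trichostatin A library that stood apart the 4 chains differed in 13, 16, 12 and 4 pairs. COL24A1 differed between the inhibitors in the joint test (adjusted p = 0.0426) and in 1 pair, panobinostat over trichostatin A (by 1.38 ± 0.39). Both calls were lost without that library (joint test adjusted p = 0.104, and 0 pairs).

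Genes that modify, cut and bind collagen were read from lists chosen with earlier results of these data known. Of the enzymes and chaperones of chain modification and folding, 30 of 145 results rose and 12 fell by trend, against 25.4% of all features called. Counts and ranges for these lists are trend calls and trend changes unless C5 is named. The median change was 0.11, where the median over all features lay between -0.0038 and 0.10 in the single inhibitors. P4HA2, a prolyl hydroxylase subunit that stabilises the helix, rose in 7 inhibitors (0.62 to 1.76). PLOD2, a lysyl hydroxylase that prepares cross-links, rose in 6 (1.60 to 3.39), and in vorinostat its C1 mean was 192 ± 16.1 CPM (SD, n = 3) and its C5 mean 1691 ± 169 CPM. MIA3, which loads procollagen into transport vesicles, rose in 4 (1.28 to 1.64). SERPINH1, the collagen chaperone HSP47, fell in 5 (-0.88 to -1.98) and was low, with C1 means of 9.52 to 12.9 CPM.

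Of the genes that trim and cross-link procollagen, 10 of 72 results rose and 11 fell by trend (25.4% of all features called), with a median of -0.14. BMP1, which removes the C-terminal propeptide, rose in 1 inhibitor and fell in 3 by trend, and at C5 it rose in 1 and fell in 5. TLL1, its relative, rose in 3 (1.41 to 2.48), ADAMTS3, which removes N-terminal propeptides, rose in 3 (1.20 to 1.51), and SPARC, a collagen-binding matrix protein, fell in 3 (-1.02 to -2.38) and at C5 in 5. At C5 itself 6 of the 72 rose and 17 fell, against 25.0% of all features.

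Of matrix metalloproteinases, other collagen-degrading proteins and their inhibitors, 41 of 95 results rose and 11 fell by trend (25.4% of all features called), with a median of 0.31. From 9 to 16 of its features were tested in an inhibitor, and a gene near 0 counts at C1 entered only where a later group was high, so part of the count can follow from the filter. MMP10, stromelysin 2, rose in 7 inhibitors by 2.28 to 7.26, and in mocetinostat its mean went from 2.47 ± 1.29 CPM (SD, n = 3) to 121 ± 27.0 CPM. The membrane-bound MMP15 rose in 7 (1.05 to 1.84) and MMP16 in 6 (0.83 to 1.87). MMP14, the membrane-bound collagenase, fell in 6 (-0.78 to -4.44), and in mocetinostat its mean went from 866 ± 87.2 CPM to 58.1 ± 6.64 CPM.

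Of the collagen receptors, 8 of 48 results rose and 15 fell by trend (25.4% of all features called), with a median of -0.13. The collagen-binding integrin subunits ITGA10 and ITGA11 fell in 7 inhibitors (-1.41 to -3.76) and in 6 (-0.75 to -2.08), while their partner subunit ITGB1 rose in 4 (0.89 to 1.74). DDR1, a receptor kinase for collagen, fell in 2 (-1.28 and -3.06). Of the genes of transforming growth factor beta signalling, the pathway best known for inducing collagen in fibrosis, 18 of 114 results rose and 11 fell by trend, which is the share of all features called (25.4%), with a median of 0.02. CCN2 (CTGF), a target of that pathway, rose in 4 (1.80 to 2.51), TGFBR3, a co-receptor, rose in 3 (1.51 to 2.11), and SKI and SMAD3, a repressor and a transducer of the signal, were called in both directions over inhibitors by trend (3 higher and 1 lower, and 1 higher and 3 lower).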

How the data were processed

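TempO-Seq libraries were made from lysates of HepaRG cells. The authors deposited raw read counts per detector probe as whole numbers, and the submitters' processing notes name bcl2fastq 2.20.422, fastp 0.23.2, STAR 2.7.10b and DESeq2 1.38.0. The genome build is not given in the sources used here, so coordinates come from RefSeq (GRCh38.p14). Of 22069 rows, 1 lacked values in 88 libraries and was left out. It was the last row, so whether the table is complete is open. Totals of 1061359 to 5250260 counts per library set the precision, and since reads carry no molecular identifiers, counting errors are lower bounds.

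A separate model per inhibitor was made with edgeR 4.0.16 in R 4.3.3 (filterByExpr by group, trimmed mean of M values scaling, quasi-likelihood F tests), C2 to C5 against C1 and as a slope on log2 concentration. P-values were adjusted after Benjamini and Hochberg over all features, and the fold change minimum was 1.5. Differences between inhibitors were tested in 1 model of all 118 libraries, jointly over the 8 inhibitors and for 28 pairs with p-values adjusted over all features and pairs. CPM were scaled in the same way over all libraries. The fits were also run on simulated counts modelled on apicidin, alone or with valproic acid, with the same dispersion for every feature. Changes were simulated only in features of higher counts, and no outlying library was simulated. That run therefore does not cover calls at low counts or the trichostatin A library that stood apart. Standard errors are the absolute log2 change over the square root of F.

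The labels give replicate numbers as HepaRG batches, so same-numbered libraries are paired. Correlating the libraries' deviations from their group means gave a median of 0.023 within batches (232 pairs) and -0.0109 between batches (464 pairs). A fit with the batch as a block, DESeq2 1.42.0, other size factors, no filter on low counts, probes summed per symbol and leaving out each replicate were the alternatives, and leaving out 1 trichostatin A library was added after the data were seen.

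The members, gene lists and named features were chosen with earlier results of these data known. Named in full were the 10 collagen features called by trend in the most inhibitors and the 5 with the highest mean level at C1 (11 in all). Named by range were others called in at least 2 inhibitors, and from each other list the 4 called in the most. Sequences came from RefSeq promoter tables, which held 32 of the 44 symbols. The paper given with the series describes another HepaRG experiment, and the fold change minimum was taken from it.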

Additional observations from a re-analysis of the deposited data

Results flagged for a closer look

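The change at C5 against C1 differed between the 8 inhibitors in 16 of 30 collagen features in the joint F test, against 30.3% of all 15632 features. The model of all libraries kept 30 features, where the fits per inhibitor tested 23, so features with very low counts were added. COL15A1 was among those added, with at most 14 counts in a library and 0 in 56 of 118 libraries, so its result rests on counts near 0. The adjusted p-value was 5.81e-11 for COL18A1, 1.68e-10 for COL27A1, 5.79e-05 for COL7A1, 6.73e-05 for COL1A1 and 7.88e-05 for COL4A1. It was 0.000168 for COL28A1, 0.000432 for COL5A1, 0.000432 for COL12A1, 0.00575 for COL21A1 and 0.00702 for COL4A3. It was 0.0103 for COL4A2, 0.0218 for COL16A1, 0.0254 for COL4A6, 0.0381 for COL11A2, 0.0426 for COL24A1 and 0.0443 for COL15A1. Concentrations were not matched between inhibitors, and 1 trichostatin A library at C1 stood apart. Without trichostatin A 10 of 29 features differed, against 21.2% of all 15547 features. Without that 1 library 15 of 29 features differed, against 28.1% of all 15590 features. COL24A1 (adjusted p = 0.104) and COL15A1 (adjusted p = 0.0854) no longer did, and COL4A5 now did (adjusted p = 0.0338, and 0.0600 with the library). Other adjusted p-values moved either way without it, as for COL1A1 (0.00328) and COL7A1 (1.46e-05). Groups of 2 or 3 libraries are too small for a test of single outlying samples.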

How the results depend on the processing

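No called change of a named collagen feature turned its direction under any alternative run. The number of collagen features called at C5 in scriptaid went from 6 to 10 with no filter on low counts, and by trend with no filter panobinostat went from 6 to 10 and valproic acid from 7 to 11. In trichostatin A the 0 called at C5 became 1 with DESeq2, 2 with no filter and 1 without its C1 library of replicate 3, and the 0 by trend became 2 with DESeq2 and 1 without that library. At C2 the 0 over all inhibitors became 1 with DESeq2 and 2 with no filter. The 16 features that differed between inhibitors became 10 without trichostatin A (21.2% of all features) and 15 without its C1 library of replicate 3 (28.1%). Leaving out each replicate in turn gave at C5 5 to 7 calls in apicidin, 3 to 8 in mocetinostat, 4 to 6 in panobinostat, 2 to 8 in scriptaid, 12 to 13 in tacedinaline, 0 in trichostatin A, 2 to 7 in valproic acid and 6 to 9 in vorinostat. By trend it gave 8 to 11, 5 to 9, 4 to 5, 1 to 4, 10 to 12, 0, 5 to 7 and 7 to 11 in the same order. Over all inhibitors it gave 0 to 6 calls at C2, 4 to 14 at C3, 22 to 33 at C4 and 119 to 130 in the other lists. It gave 6 to 12 collagen features that differed between inhibitors, against 15.2 to 24.7% of all features. With the HepaRG batch as a replicate block the calls at C5 were 10, 9, 7, 6, 13, 0, 7 and 11 and by trend 11, 9, 6, 6, 13, 0, 7 and 11 in that order, with 20 at C3, 43 at C4, 17 features that differed and 164 calls in the other lists, so the block moved no count by over 1.5 times. Of 93 calls of named features, 18 were lost without replicate 1, 23 without replicate 2 and 15 without replicate 3, where fewer libraries were fitted, 3 with no filter, where more features were tested, and none with DESeq2, other size factors, summed probes or the block. Among named results that were not called, 10 became called with DESeq2, 4 with no filter, 3 with summed probes and 2 with the block. A further 1 became called without replicate 1, 2 without replicate 2 and 2 without the trichostatin A library. DESeq2 was not run for the joint test and the other lists. Depth limits the 23 untested features and the low side of COL3A1, COL11A1 and COL11A2.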
